A study of Rattus norvegicus with 24 samples.

Results

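Matrix metalloproteinases are zinc-dependent enzymes that cut collagen, elastin, gelatin and other proteins of the extracellular matrix, and tissue inhibitors of metalloproteinases (Timps) bind their active sites and block them. In the lung the balance of the 2 families is known for its part in repair, in the breakdown of alveolar walls in emphysema and in the movement of leukocytes through tissue. Their mRNA is 1 layer of control only, since most of the enzymes are made as inactive proforms that other proteases open.

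The set described here held 10 genes: the collagenase Mmp13, the stromelysin Mmp3, the matrilysin Mmp7, the gelatinases Mmp2 and Mmp9, the macrophage elastase Mmp12, the membrane-type enzyme Mmp14 and the inhibitors Timp1, Timp2 and Timp3. Probes were taken into the set when their RefSeq accession matched one of these symbols, and all 10 genes were found, on 11 of the 30367 probes of a 1-colour array that named 15443 genes. The list was put together with the dose comparisons of these same arrays in view, so the differences between dose and control are given below as a description. Counts of members that met a call rule stand beside the share of all features that met it, and nothing is read from them.

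Lungs came from 24 Fischer-344 rats of both sexes, aged 7 to 8 weeks, that inhaled filtered clean air (control) or hexanal, a volatile aldehyde, at 600, 1000 or 1500 ppm for 4 h per day on 5 days per week. Each group held 6 rats, 3 males and 3 females, and each array held the lung RNA of 1 rat, named here by its number in the labels. The sample titles give the doses in ppm, as does the study, whereas the treatment protocol in the labels gives the same figures in mg/m3 and 5 weeks of exposure, a longer period than in the study's methods. There were 6 slides with 4 arrays apiece, all from rats of 1 sex on any slide. Slides 3 and 4 held rats at 600 and 1000 ppm, and slides 5 and 6 held rats at 1000 and 1500 ppm. Control rats shared their slides with only 1 dosed rat per sex, rat 6 and rat 26 at 600 ppm. Within slides, control was thus linked to the doses only through these 2 rats. Signals are given as log2 of the processed signal minus the log2 of the 75th percentile of the same array, so a value of 0 is the level of that percentile. The percentile ranged from 1701 to 3133 signal units, and 70.7% to 81.8% of probes were well above background on an array. By group this share was 77.8% to 81.0% in control rats and 70.7% to 79.8% at 600 ppm. It was 76.2% to 81.8% at 1000 ppm and 72.9% to 81.8% at 1500 ppm. The 8 lung epithelial markers, among them the surfactant genes Sftpc and Sftpb, were well above background on all 24 arrays. Each sample was a piece of whole lung, so fewer cells of a type and less RNA per cell cannot be told apart.

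Of the 10 genes on chromosome 8 between Mmp13 and Mmp7 that carry the name Mmp, 4 are members of the set, in the order Mmp13, Mmp12, Mmp3 and Mmp7. The promoters of these 4 genes are shown because they share a short sequence, TGAGTCA or its reverse complement TGACTCA, the site bound by AP-1 dimers of Fos and Jun proteins, and because Fos and Jun were among the genes called at 1500 ppm. The 100 bases before the annotated start are printed 5′ to 3′ from RefSeq (GRCr8), with the AP-1 letters in capitals, and the promoter of Timp1 is printed beside them as one without the letters.
Mmp13, chr8:12782729-12782828, plus strand: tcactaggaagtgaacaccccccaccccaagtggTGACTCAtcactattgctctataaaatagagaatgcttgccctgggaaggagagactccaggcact
Mmp12, chr8:12866552-12866651, plus strand: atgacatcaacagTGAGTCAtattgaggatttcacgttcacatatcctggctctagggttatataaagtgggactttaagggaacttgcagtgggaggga
Mmp3, chr8:12925181-12925280, plus strand: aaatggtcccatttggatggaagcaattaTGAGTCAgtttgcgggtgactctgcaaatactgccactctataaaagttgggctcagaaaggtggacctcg
Mmp7, chr8:13132943-13133042, plus strand: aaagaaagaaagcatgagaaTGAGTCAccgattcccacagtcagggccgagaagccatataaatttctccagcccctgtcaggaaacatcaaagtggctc
Timp1, chrX:3771123-3771222, minus strand: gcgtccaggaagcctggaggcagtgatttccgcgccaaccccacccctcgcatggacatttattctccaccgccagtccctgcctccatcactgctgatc
The letters started 66 bases before the start in Mmp13, where they lay on the minus strand, 87 in Mmp12, 71 in Mmp3 and 80 in Mmp7. Of the 7 members in the promoter table, 4 held the letters on either strand in these 100 bases and the inhibitors Timp1, Timp2 and Timp3 did not. Over all 33469 promoters 1.58% held them in the same 100 bases and 4.63% in the whole window from 250 bases before to 50 bases after the start. The TATAAA letters of a TATA box, searched on both strands, lay in the 100 bases of the same 4 promoters and in 5.78% of all. A match of letters describes the window and not binding in these lungs. Mmp2, Mmp9 and Mmp14 were not in the table.

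Of the 10 genes, 8 were bright enough to be tested, meaning that the probe was well above background in 5 or more rats of some group. Mmp3 and Mmp7 were not. Mmp3 was well above background on 1 of 24 arrays and Mmp7 on 6, and neither is given a fold change. The 6 genes Mmp2, Mmp12, Mmp14, Timp1, Timp2 and Timp3 were well above background on all 24 arrays. Levels of different probes are not set against each other here, since each probe has its own response.

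**Figure D1:**
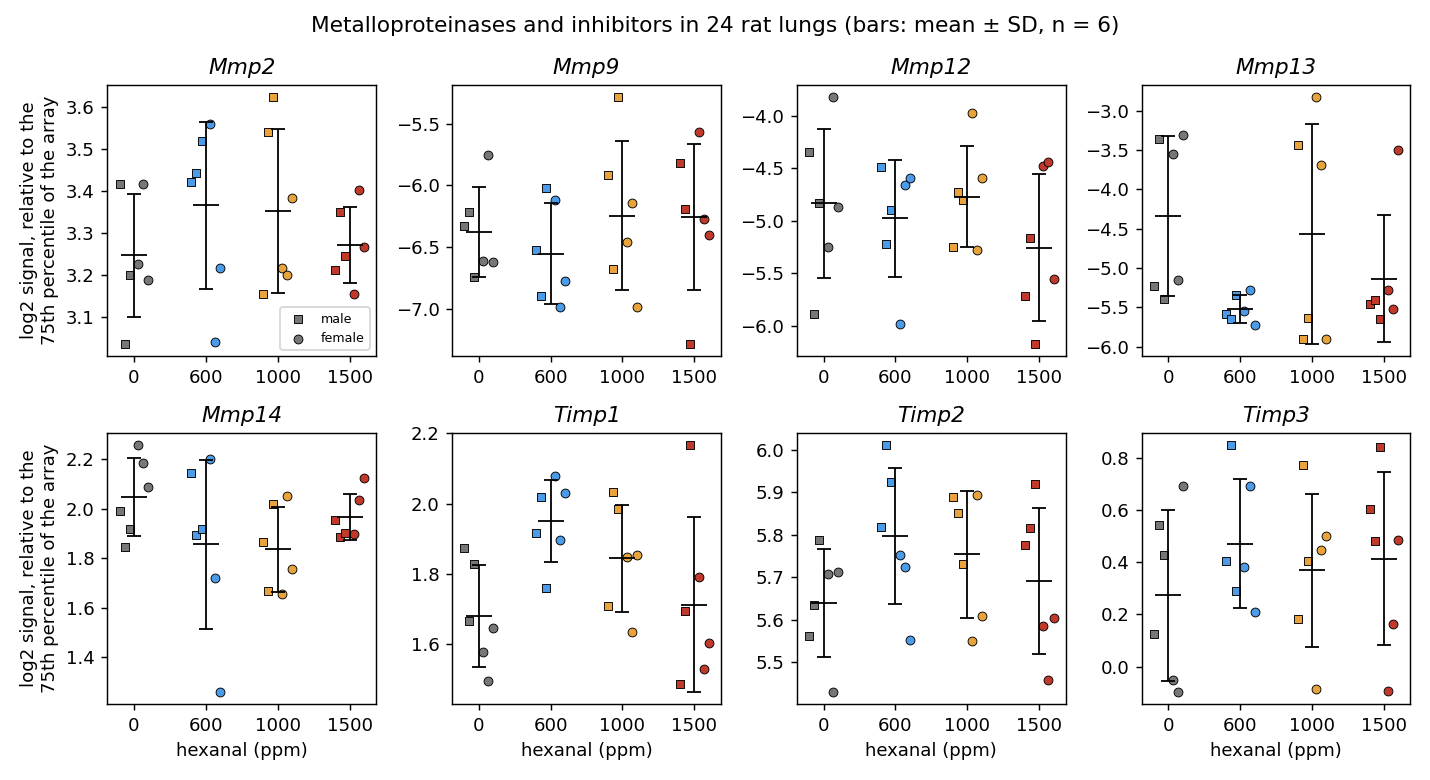
Signal of the 8 tested genes (y axis, log2 relative to the 75th percentile of the array) in each rat by hexanal dose (x axis, ppm, 0 being clean air). Squares are males, circles are females, and bars give the mean ± SD of 6 rats. The groups overlapped for every gene, and Mmp13 lay in 2 ranges with a gap between them.

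The clearest feature of the set was Mmp13, the interstitial collagenase of rodents, whose signal took 2 separate ranges among the rats. In the control group rats 2, 21 and 23 stood at -3.37, -3.55 and -3.32, and rats 1, 3 and 22 at -5.23, -5.39 and -5.16. At 600 ppm all 6 rats lay between -5.72 (rat 28) and -5.28 (rat 27). At 1000 ppm rats 11, 31 and 32 stood at -3.43, -2.83 and -3.69, and rats 12, 13 and 33 at -5.90, -5.63 and -5.91. At 1500 ppm rat 38 stood at -3.50 and the other 5 rats between -5.64 and -5.29. Over the whole series 17 rats lay between -5.91 and -5.16 and 7 between -3.69 and -2.83, with an empty gap of 1.46 on the log2 scale, 2.75-fold, between them. The next widest gap was 0.48. The upper 7 were 3 control rats, 3 at 1000 ppm and 1 at 1500 ppm, 5 of them females and 2 males, and they lay on 5 of the 6 slides.

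The spread between the spots of an array was small beside the gap. Mmp13 was printed on 10 spots per array, and the SD of the log2 spot signals within an array had a median of 0.14 and a range of 0.03 to 0.23. In control rat 1 the spots ran from 70.3 to 94.3 signal units and in rat 31, the highest at 1000 ppm, from 372.2 to 395.7. The probe was well above background on 23 of 24 arrays, rat 7 at 600 ppm being the exception. The spots show the noise within an array only, and not the error between arrays, labellings or slides, of which there was no repeat.

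**Figure D2:**
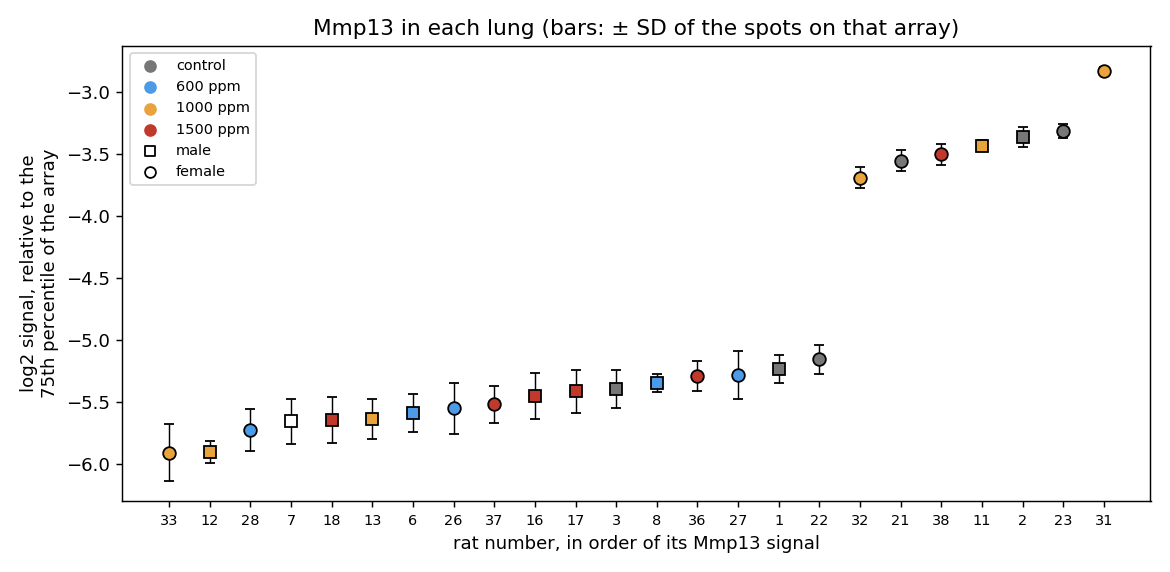
Mmp13 signal in each of the 24 rats (y axis, log2 relative to the 75th percentile of the array), in order of the signal (x axis, rat number). Colour gives the dose, squares are males, circles are females, the open square is the rat whose probe was not well above background, and bars are ± SD of the spots of that array. A gap of 1.46 separates the upper 7 rats from the other 17.

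The dose groups differed in Mmp13 by how many of their rats lay in the upper range. The group mean of Mmp13 was -4.34 ± 1.02 (SD, n = 6) in control rats, -5.52 ± 0.17 at 600 ppm, -4.57 ± 1.40 at 1000 ppm and -5.14 ± 0.81 at 1500 ppm. The difference from control was -1.19, -0.23 and -0.80 in order of dose (SE 0.53 for each). The difference at 600 ppm was 2.28-fold and met the call rule, 1.5-fold and an unadjusted limma p under 0.05, which 0.616% of the 21253 tested features met at that dose and 0.456% met in the direction of lower signal. It was the only member called at any dose, and since the list was chosen on these contrasts nothing is read from it. Leaving out any one of control rats 2, 21 and 23 or of rats 6, 7 and 28 ended the call, with differences between -1.40 and -0.98 over all 24 single omissions. With slide as a block the difference at 600 ppm was -1.23 (SE 0.69) and was not called, and at 1000 and 1500 ppm the sign turned, to 0.31 (SE 0.91) and 0.94 (SE 1.14). Within slide 1 rat 6 differed from the mean of the 3 control males by -0.92, and within slide 2 rat 26 differed from that of the 3 control females by -1.54. Cartilage is a tissue known for Mmp13, and the summed relative signal of the 8 cartilage markers on the array was 0.28 to 0.40 in control rats, 0.32 to 0.57 at 600 ppm, 0.31 to 0.48 at 1000 ppm and 0.27 to 0.46 at 1500 ppm, with Hapln1 above background in no rat. The 5 tested cartilage markers were all higher than control at each dose, with medians of 0.21, 0.315 and 0.143 in order of dose. Comp was called among them at 600 ppm (0.60). The part of cartilage in the Mmp13 values was not tested.

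Mmp3, a stromelysin that opens other proenzymes, was at or near background throughout. Its signal lay between -9.30 and -7.88 on 23 arrays that were not well above background. In rat 32 at 1000 ppm, one of the 7 rats in the upper Mmp13 range, it stood at -6.22 and was well above background. Mmp7, the matrilysin of epithelial cells, was well above background in control rats 21 and 23, in rats 12, 13 and 31 at 1000 ppm, in rat 18 at 1500 ppm and in no rat at 600 ppm. Its group medians were -7.22 in control rats, -8.14 at 600 ppm, -7.01 at 1000 ppm and -7.55 at 1500 ppm. Over all probes the share well above background was 70.7% to 79.8% on arrays at 600 ppm and 77.8% to 81.0% on control arrays.

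The gelatinases Mmp2 and Mmp9 cut denatured collagen and basement membrane collagen. Mmp2 ran from 3.04 (rat 2) to 3.42 (rat 1) in control rats with a median of 3.21, and the medians were 3.43 at 600 ppm, 3.30 at 1000 ppm and 3.26 at 1500 ppm. All 3 dosed groups overlapped the control group, and 4 of 6 rats at 600 ppm lay above every control rat. The differences were 0.12, 0.11 and 0.03 (SE 0.10 for each), and with slide as a block 0.24, 0.22 and -0.02. At 1500 ppm the value was -0.04 with no scaling. Another probe for Mmp2 followed this one over the 24 rats with r = 0.867 and gave 0.04, 0.08 and -0.02. Mmp9, best known from neutrophils and macrophages, was well above background in 5 control rats, 1 rat at 600 ppm, 5 at 1000 ppm and 4 at 1500 ppm. Control rat 3 was counted with a signal of -6.74, whereas rat 8 at 600 ppm, at -6.02, was not. Arrays at 600 ppm had 70.7% to 79.8% of all probes above background, and control arrays 77.8% to 81.0%. The Mmp9 differences were -0.17, 0.14 and 0.12 (SE 0.28 for each), and under other scalings each of the 3 took the opposite sign. The 8 neutrophil markers on the array had a summed relative signal of 6.15 to 10.59 in control rats, 6.39 to 12.54 at 600 ppm, 5.99 to 17.07 at 1000 ppm and 4.20 to 12.08 at 1500 ppm. Whether they take part in the Mmp9 values was not tested.

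Mmp12, the elastase that macrophages secrete, varied more among rats than between doses. Control rats ran from -5.88 (rat 2) to -3.82 (rat 22) with a median of -4.85, and the medians were -4.78 at 600 ppm, -4.76 at 1000 ppm and -5.36 at 1500 ppm. The differences were -0.14, 0.07 and -0.42 (SE 0.34 for each). With slide as a block they were -0.40, -0.37 and -0.93, and with normexp background correction the value at 1000 ppm was -0.34. The summed relative signal of 8 macrophage markers was 8.94 to 14.61 in control rats, 9.82 to 15.76 at 600 ppm, 6.33 to 14.61 at 1000 ppm and 6.59 to 13.09 at 1500 ppm. Of the 7 tested markers 2 were lower than control at 600 ppm, 6 at 1000 ppm and 7 at 1500 ppm, none of them called. Their part in the Mmp12 values was not tested.

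Mmp14, a membrane-bound enzyme that activates proMmp2, had control values of 1.84 (rat 2) to 2.26 (rat 21) with a median of 2.04. Medians were 1.91, 1.81 and 1.93 at 600, 1000 and 1500 ppm, and the lowest rat of the series was rat 28 at 600 ppm with 1.26. The differences of -0.19, -0.21 and -0.08 (SE 0.12 for each) all took the other sign with slide as a block, at 0.13, 0.24 and 0.32.

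Among the inhibitors Timp1, an inducible form, was higher at 600 ppm, from 1.76 (rat 8) to 2.08 (rat 26) with a median of 1.97, against 1.49 (rat 22) to 1.87 (rat 1) with a median of 1.66 in control rats. At 600 ppm 5 of 6 rats lay above every control rat. The difference was 0.27 (SE 0.10), 1.21-fold and so below the 1.5-fold line, and 0.16 and 0.03 at 1000 and 1500 ppm. With slide as a block the value at 600 ppm was 0.32 (SE 0.15), and at 1500 ppm the sign was negative with slide as a block and with no scaling of the arrays. Timp2, the inhibitor that also helps Mmp14 to activate proMmp2, differed from control by 0.16, 0.12 and 0.05 (SE 0.09 for each), the last being -0.01 with no scaling. Timp3, which stays bound to the matrix, differed by 0.20, 0.10 and 0.14 (SE 0.17 for each), with -0.06 at 1000 ppm and -0.10 at 1500 ppm when slide was a block.

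**Figure D3:**
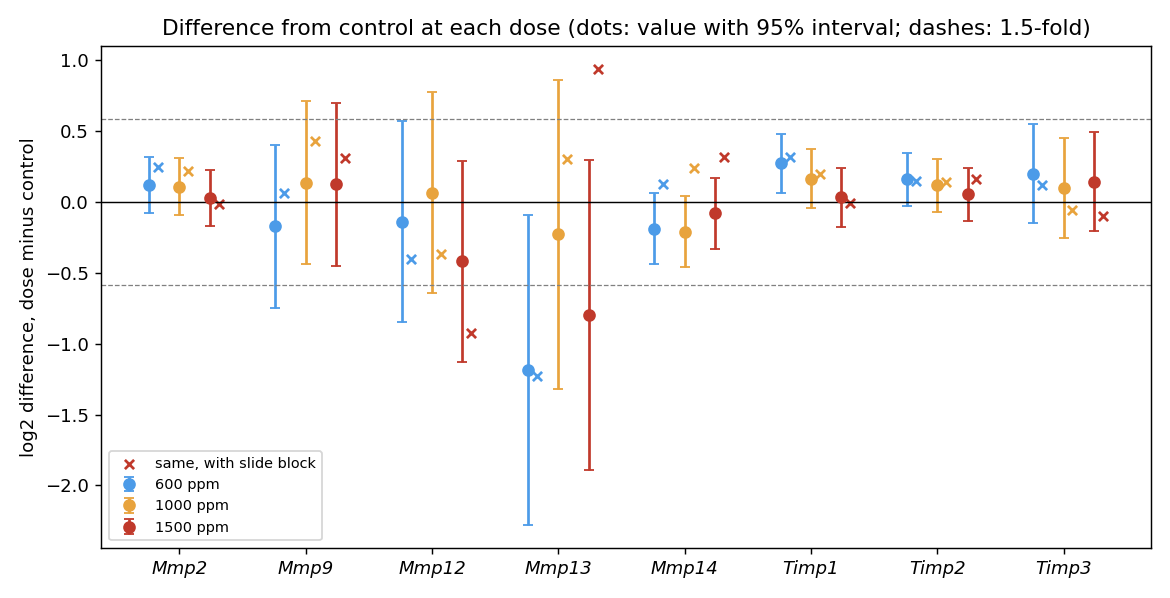
Difference from control (y axis, log2) of the 8 tested genes at 600, 1000 and 1500 ppm. Dots and bars are the limma estimate with its 95% confidence interval, crosses are the estimate with slide as a block, and dashed lines mark 1.5-fold. Mmp13 at 600 and 1500 ppm has the only dots beyond a dashed line, and its crosses at 1000 and 1500 ppm lie on the other side of 0.

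Counted as a list, the 8 tested genes divided between both directions. At 600 ppm 4 were higher and 4 lower than control, with a median difference of -0.011 against -0.001 over all features, at 1000 ppm 6 and 2 with 0.10 against 0.01, and at 1500 ppm 5 and 3 with 0.03 against 0.01. The call rule was met by 1, 0 and 0 of the 8, beside 0.616%, 1.63% and 1.22% of all features. By limma with Benjamini-Hochberg adjustment over all features 0 members passed 0.05 at any dose. That threshold was passed by 0%, 0.0188% and 0.00471% of all features. The unadjusted limma p was under 0.05 for 2, 0 and 0 members, beside 4.35%, 8.98% and 6.96% of all features. By the methods' t-test the 1.5-fold rule called 1, 0 and 0 members, beside 0.409%, 1.4% and 0.885%. At no dose did the 6 dosed rats stand clear of the 6 control rats for a member (0 of 8), whereas 0.278%, 0.452% and 0.48% of all features did so.

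Sex was not part of how the list was chosen, so it was tested. Timp2 was lower in the 12 females than in the 12 males. Females ran from 5.43 (rat 22) to 5.90 (rat 32) with a median of 5.61, and males from 5.56 (rat 1) to 6.01 (rat 7) with a median of 5.82, so the sexes overlapped. The difference, female minus male, was -0.18 (SE 0.05), with an adjusted p of 0.0162 by limma and a two-sided permutation p of 0.00313 (0.025 after adjustment over the 8 members). The permutation moved the sex labels freely over all 24 rats, so it took no account of slide or dose. The call held in all 24 fits that left out 1 rat, with adjusted p from 0.00609 to 0.0319. Because every slide held rats of 1 sex, slide was also fitted as a random block (correlation within slide 0.129), and the adjusted p was then 0.0633. It was also past 0.05 with normexp background correction, at 0.0894. Across all features 24.9% differed between the sexes, 9.33% in the direction of lower signal in females, and 13.3% with the random block.

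Taken by dose, the Timp2 means of control rats were 5.66 ± 0.12 (SD, n = 3) in males and 5.62 ± 0.16 in females, a difference of -0.05 in a fit of the control rats alone. At 600 ppm the 3 males (5.82 to 6.01) lay above the 3 females (5.55 to 5.75), and at 1500 ppm the 3 males (5.78 to 5.92) lay above the 3 females (5.46 to 5.60). At 1000 ppm they overlapped through female rat 32. The test of the difference itself did not pass. The dose effect in females minus that in males was -0.20, -0.10 and -0.24 in order of dose, with adjusted p of 0.963, 0.879 and 0.367 by limma.

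**Figure D4:**
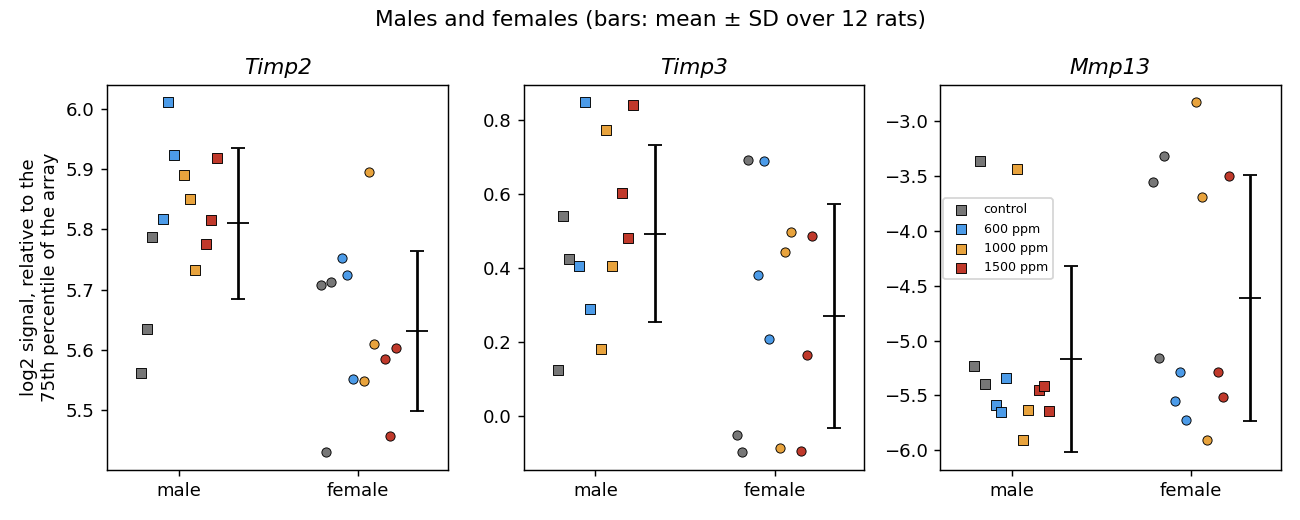
Timp2, Timp3 and Mmp13 in males (squares) and females (circles), y axis in log2 relative to the 75th percentile of the array, coloured by dose, with mean ± SD over the 12 rats of each sex. Timp2 was lower in females by 0.18 with overlap of the sexes, and the upper range of Mmp13 held 5 females and 2 males.

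The other 7 tested genes did not pass the sex test. Timp3 was the nearest, at -0.22 (SE 0.11, adjusted p = 0.148 by limma, with a 95% interval from -0.46 to 0.01), and passed only with no scaling of the arrays (adjusted p = 0.048). Mmp13 differed by 0.56 (SE 0.36, adjusted p = 0.265) and Mmp12 by 0.34 (SE 0.24, adjusted p = 0.313), both higher in females on average. No member showed a dose effect that differed between the sexes at an adjusted p under 0.05 by limma, and 1, 0 and 0 members had an unadjusted p under 0.05, the 1 being Mmp14 at 600 ppm. Of all features 0%, 0% and 5.01% passed the adjusted threshold and 4.99%, 9.42% and 20.1% had an unadjusted p under 0.05.

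Within groups the members were also set against each other. Over the 28 pairs of the 8 genes, with each rat taken as its deviation from the mean of its dose and sex, r ran from -0.677 to 0.492 and 0 pairs passed after adjustment. The pairs nearest to it were Mmp12 with Timp2 (r = -0.677, permutation p = 0.00662, rho = -0.681, permutation p = 0.00498, adjusted p = 0.0945, r = -0.757 without the 2 farthest rats) and Mmp2 with Mmp13 (r = -0.615, permutation p = 0.00675, rho = -0.624, permutation p = 0.0121, adjusted p = 0.0945, r = -0.611 without the 2 farthest rats). Mmp12 and Mmp13, neighbours on chromosome 8, had r = -0.458 (permutation p = 0.067, rho = -0.431, permutation p = 0.0799, adjusted p = 0.355, r = -0.421 without the 2 farthest rats).

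The genes most like each member were named by their r over the 24 rats after the same centring, given as a description, since all points share the arrays and their scaling. Mmp12 had the closest company. Agr3 (r = 0.908), Cxcl13, a chemokine that attracts B cells (r = 0.907), and Gstm1, a glutathione transferase (r = 0.899), followed it most closely. Among the 12497 features with a gene symbol, 120 had an r above 0.8. The centring takes out differences between groups: the medians of control rats and of rats at 1000 ppm were -4.85 and -4.76 for Mmp12, but -1.74 and -1.15 for Agr3 and 0.84 and 1.57 for Gstm1. Mmp13 was nearest to Fbxl14 (0.867), Sstr4, a somatostatin receptor (0.847), and Krt33b, a hair keratin (0.832), with 8 features with a gene symbol above 0.8. Timp2 was nearest to Car2, carbonic anhydrase 2 (0.882), Fbxw2 (0.848) and Smim1 (0.847), and Timp3 to Sec14l1 (0.850), Rai14 (0.828) and Rgcc (0.827). For Mmp2 the nearest were Rfng (0.781), the laminin chain Lamc3 (0.777) and desmin, Des (0.754), for Mmp14 Inpp5a (0.801), Lingo2 (0.797) and Kcnq5 (0.791), and for Timp1 Smox (0.773), Pmf1 (0.765) and the NADPH oxidase Nox1 (0.70). The rank correlation of Nox1 with Timp1 was lower, rho = 0.368, and with slide removed as well the r with Mmp14 was 0.584 for Inpp5a and 0.528 for Lingo2. Mmp9 was too dim in some groups for the rule.

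**Figure D5:**
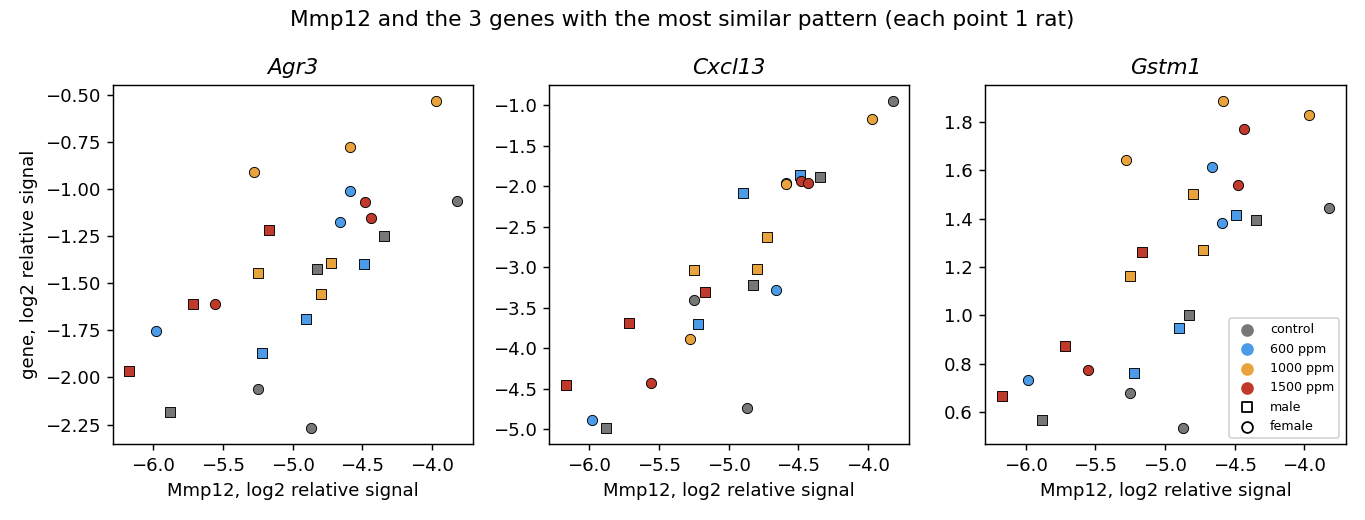
Mmp12 (x axis, log2 relative to the 75th percentile of the array) against Agr3, Cxcl13 and Gstm1 (y axes, same unit), 1 point per rat, coloured by dose, squares for males and circles for females. Higher Mmp12 goes with higher values of the 3 genes, with r of 0.899 to 0.908 after centring on dose and sex, while control rats and those at 1000 ppm, with similar medians for Mmp12, have different medians for Gstm1 and Agr3.

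The wider pathway was read from 75 other genes, of which 62 were on the array and 53 were tested: other metalloproteinases, other protease inhibitors, activators such as Plau and Furin, Adam and Adamts proteases, matrix substrates and AP-1 factors. These lists were also chosen with earlier results of these data known, so their counts are given as a description. The call rule was met by 0 of 53 at 600 ppm, 2 (3.77%) at 1000 ppm and 3 (5.66%) at 1500 ppm. Of all features 0.616%, 1.63% and 1.22% met it. By limma 0 of the 53 passed an adjusted p of 0.05. The unadjusted limma p was under 0.05 for 4, 5 and 11 of them, beside 4.35%, 8.98% and 6.96% of all features. None of the 9 tested other metalloproteinases, 8 activators, 10 Adam and Adamts proteases and 12 matrix substrates was called at any dose. With slide as a block the protease Adamts1 was called at all 3 doses, and Adamts12 and the elastin gene Eln at 1500 ppm, while Timp4 was no longer called. The matrix substrates had medians of 0.04, 0.01 and 0.02, and the widest single difference was in Spp1, osteopontin, at 1.25, 0.46 and 1.06 without a call (SE 0.92 for each).

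The calls at 1500 ppm were 3 of 6 tested AP-1 factors, the proteins that bind the letters shown in the promoters of Mmp13, Mmp12, Mmp3 and Mmp7. Fos fell by 2.42 on the log2 scale (SE 0.68, adjusted p = 0.406 by limma), from a control range of -2.31 (rat 3) to 1.66 (rat 23) to a range of -3.91 (rat 36) to -0.80 (rat 38). Jun fell by 0.88 (SE 0.20, adjusted p = 0.174), with 5 of 6 rats below every control rat, and by 0.62 at 1000 ppm (adjusted p = 0.515). Junb fell by 0.71 (SE 0.26, adjusted p = 0.595), with the groups overlapping. All 6 tested factors were below control at 1000 and at 1500 ppm, with a median of -0.16 and -0.48. The 3 calls at 1500 ppm held under every scaling tried, and those of Fos and Jun held in all 24 fits that left out 1 rat, whereas Junb without control rat 23 was at -0.53, under the 1.5-fold line, and was not called by the methods' t-test. Jun at 1000 ppm was not called with normexp background correction, with no scaling, or without control rat 2, control rat 23 (-0.47) or rat 32. At 600 ppm, the dose at which Mmp13 was lowest, Fos differed by -0.80, Jun by -0.47 and Junb by -0.28, none of them called. With slide as a block Jun was called at 600 ppm too, at -0.74 (SE 0.26), and the values at 1500 ppm were -4.78 (SE 1.63) for Fos, -1.31 (SE 0.44) for Jun and -1.53 (SE 0.59) for Junb. Among the marker lists at 1500 ppm, the 7 tested macrophage markers were all lower than control with a median of -0.21 and none called, while Itln1, a mesothelial marker, was higher by 2.36 and called, as was the fat marker Cfd. Their part in the AP-1 values was not tested.

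Timp4, an inhibitor best known from heart muscle, rose by 0.61 on the log2 scale at 1000 ppm (SE 0.23, adjusted p = 0.515 by limma), with 5 of 6 rats above every control rat. Control rats ran from -3.73 (rat 2) to -3.02 (rat 1) and rats at 1000 ppm from -3.07 (rat 11) to -2.06 (rat 33). With slide as a block the difference was 0.30, and with normexp background correction 0.27, and neither was called. The call also ended without control rat 2, rat 13 or rat 33 (0.51). Another Timp4 probe had a mean of -3.39 in control rats and -2.92 at 1000 ppm. On that probe no rat at 1000 ppm stood above every control rat. Control rat 23 was at -2.39 and the highest rat at 1000 ppm, rat 33, at -2.57. The 7 tested heart muscle markers were all higher than control at each dose, with medians of 0.85, 2.02 and 0.63 in order of dose, and the calls among them were at 1000 ppm (Tnni3, Tnnt2 and Actc1). Timp4 differed by 0.18 at 600 ppm and by -0.02 at 1500 ppm. The summed relative signal of the 8 heart muscle markers was 3.44 to 36.29 in control rats, 5.10 to 60.13 at 600 ppm, 8.50 to 125.4 at 1000 ppm and 3.52 to 127.4 at 1500 ppm. Rat 33, the highest for Timp4 at 1000 ppm, and rat 37, the highest at 1500 ppm, also had the highest marker sums of their groups, 125.4 and 127.4. Rat 1 was the highest for both in control rats. On the other Timp4 probe rats 33 and 37 were again the highest of their groups. The highest control rat there was rat 23 (-2.39), whose marker sum of 3.44 was the lowest of the control rats. At 600 ppm rat 27 was the highest for Timp4 (-2.76) with a marker sum of 5.26. Rats 6 and 28, with sums of 60.13 and 57.99 at that dose, had Timp4 at -2.77 and -3.06. The fat marker Adipoq was called at 1000 ppm too, and the summed signal of the 3 fat markers on the array was 1.02 to 1.97 in control rats and 1.29 to 4.97 at 1000 ppm. Also called at 1000 ppm were the mesothelial marker Itln1 (2.46), the fibroblast marker Pi16 (1.38), the neutrophil marker S100a8 (0.71) and the smooth muscle marker Cnn1 (0.60), and all 5 smooth muscle markers were higher than control. Of the 7 tested fibroblast markers, 3 were higher and 4 lower than control at 1000 ppm, with a median of -0.05. The part of all these tissues in the Timp4 value was not tested.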

How the data were processed

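Lung RNA of 24 rats, 6 per group, was labelled with Cy3 and hybridised to 1-colour Agilent arrays. Per the file headers, the authors scanned them with Agilent Feature Extraction 11.5.1.1, and the deposited files hold the processed signal intensity of each spot, already background-corrected by that software but not scaled between arrays. All were scanned on 1 day. Spots flagged as outliers were left out, and log2 signals were averaged over the spots of a probe. The log2 of the 75th percentile of the array was then subtracted. Probes were named through unversioned RefSeq accessions (GRCr8 table), 60.4% of 30367 probes matching. Probes had to be well above background in 5 or more of the 6 rats of some group, and a gene was represented by its brightest kept probe, 21253 features in all, also counting probes with no name.

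Dose, sex and dose by sex were fitted on all 24 arrays with limma 3.58.1 in R 4.3.3. Dose calls took the thresholds of the methods, 1.5-fold and an unadjusted p under 0.05, with the p from limma, sex and interaction calls a Benjamini-Hochberg adjusted p under 0.05. Slide was tried as a fixed block for dose and, for sex, as a random block (duplicateCorrelation). Permutation tests used 100000 resamples. The scripts were tested on simulated data. The number of rats limits the precision, and nothing in the labels ties rats to cages or litters.

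The members and lists were chosen with earlier results of these data known. Named were all members, every gene of the wider lists called at any dose, and for each member that met this filter in every group the 3 genes with the highest r. The wider lists were other metalloproteinases, other inhibitors, activators, Adam and Adamts proteases, matrix substrates and AP-1 factors. Marker lists were made for lung epithelium, macrophages, neutrophils, fibroblasts, smooth muscle, mesothelium, cartilage, heart muscle and fat cells. The alternatives were normexp background correction (offset 50), quantile normalization, scaling to the median, the deposited value table with no scaling, no filter, a filter on all 24 arrays, each probe counted, the methods' t-test, limma on 1 dose with its controls, sex as a covariate, slide as a block, an adjusted p and the omission of each rat.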

Additional observations from a re-analysis of the deposited data

Results flagged for a closer look

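A single rat stood apart from the other 5 of its group in 2 of the 40 groups of 6 tested over the 10 genes by Dixon's ratio of the gap to the range (95% level). Chance flags about 1 group in 20, which is the share seen here. For Mmp13 at 1500 ppm the ratio was 0.832, with rat 38 at -3.50 and the next rat at -5.29. For Mmp3 at 1000 ppm it was 0.725, with rat 32 at -6.22, the only array of the series on which the Mmp3 probe was well above background, and the next rat at -8.43. The other 5 values of that group were not well above background, so the ratio there is set against background signal, and the Mmp13 ratio restates the gap between the 2 ranges of that gene.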

How the results depend on the processing

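The count of members called at 600 ppm, 1 in the report, was 2 with no filter on dim probes, where Mmp7 joined Mmp13, and 0 when only probes well above background on all 24 arrays were kept, with slide as a fixed block and with an adjusted p. Omitting 1 rat gave 0 to 1 at 600 ppm, 0 at 1000 ppm and 0 to 1 at 1500 ppm, where Mmp13 was called without rat 38 (-1.13). The count of members called between the sexes, 1, was 0 with normexp background correction, with slide as a random block and in control rats alone, 2 with no scaling, and 1 in each fit with 1 rat omitted. The wider lists gave 1 call at 1000 ppm with normexp background correction and with no scaling and 0 with an adjusted p, 1 at 600 ppm with each probe counted and 2 with slide as a block (Adamts1 and Jun, the 2 genes also called at 1000 ppm with that block), and at 1500 ppm 6 with slide as a block and 0 with an adjusted p. Omitting 1 rat moved them over 0 to 1, 0 to 3 (0 without control rat 2) and 2 to 4. Calls over all features, 131, 347 and 260 in order of dose, were 40 (600 ppm) and 95 (1500 ppm) with normexp background correction, 569 (1000 ppm) with no scaling, 587, 562 and 479 with no filter, 50, 225 and 151 on probes above background on all 24 arrays, 87 (600 ppm) by the methods' t-test, 227 (600 ppm) and 406 (1500 ppm) with slide as a block and 0, 3 and 1 with an adjusted p. With 1 rat omitted they ranged over 129 to 202, 212 to 500 and 211 to 341. The causes were not tested. The median of all features moved by over 0.1 at 1000 ppm, to -0.12 with normexp background correction and to 0.11 with no scaling, a shift that the values under those settings carry. No paired analysis was possible because rat numbers differ between the groups.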
